A study of Mus musculus with 2 samples.

Results

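Expression of 10 genes of the epithelial cytoskeleton and of squamous differentiation was followed through the cell types of mouse kidney cortex: the keratins Krt7, Krt8, Krt15, Krt18, Krt19 and Krt20, the small proline-rich protein genes Sprr1a and Sprr2f, the transcription factor gene Klf4 and the 14-3-3 sigma gene Sfn. They were taken by symbol from the 31053 features of the count matrices, and all 10 were found among them. The genes were chosen by their summed UMIs in these same libraries, since earlier results showed them higher in I-PpoI epithelium, so the comparisons of their levels between the libraries are descriptions and carry no test. Kidney cortex of 12-week-old mice was dissociated with collagenase and pronase and profiled cell by cell in droplets with RNA sequencing, where a unique molecular identifier (UMI) marks each captured transcript. The I-PpoI library came from mice whose podocytes, the epithelial cells of the glomerular filter, express the homing endonuclease I-PpoI, which cuts DNA on both strands. The wild-type library came from mice of the same age, without further genotype in the labels. The promoter that drives I-PpoI, the strain and the number of mice per library are not given in the sources used here. The I-PpoI sequence is not among the 31053 features and no cluster was given the name podocyte-like, so the libraries' labels could not be checked against the targeted cells.

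Keratins are intermediate filament proteins that assemble as pairs of an acidic type I chain (here Krt15, Krt18, Krt19 and Krt20) and a basic type II chain (Krt7 and Krt8). Simple epithelia, among them the distal nephron and collecting duct, are built on Krt8 and Krt18 with Krt7 or Krt19, whereas Krt5, Krt14 and Krt15 mark the basal layer of stratified epithelia and Krt20 is known from intestinal cells and the surface cells of the bladder. Small proline-rich proteins are cross-linked into the cornified envelope of squamous cells, Klf4 is a zinc-finger transcription factor needed for the skin barrier, and Sfn is a p53 target that binds phosphorylated proteins and is abundant in keratinocytes.

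Sprr1a (chr3:92483952-92485895, minus strand) and Sprr2f (chr3:92365187-92366442, plus strand) lie in the epidermal differentiation complex of chromosome 3, with 7 coding genes between them (GENCODE release M21, GRCm38). Krt15 and Krt19 are neighbours 4.88 kb apart on chromosome 11, and Krt8 and Krt18 are neighbours 23.7 kb apart on chromosome 15, in each case with no coding gene between them. The promoters of the pair of small proline-rich genes are shown because these genes were absent or nearly so from wild-type tubule and were both present in I-PpoI epithelium. Both sequences are from RefSeq (GRCm38.p6), run from 250 bases before to 50 bases after the annotated start, and are written 5′ to 3′ on the gene's strand. Capitals mark matches to TGANTCA, the motif bound by the AP-1 factors of the Fos and Jun families.
Sprr1a, chr3:92485832-92486131, minus strand: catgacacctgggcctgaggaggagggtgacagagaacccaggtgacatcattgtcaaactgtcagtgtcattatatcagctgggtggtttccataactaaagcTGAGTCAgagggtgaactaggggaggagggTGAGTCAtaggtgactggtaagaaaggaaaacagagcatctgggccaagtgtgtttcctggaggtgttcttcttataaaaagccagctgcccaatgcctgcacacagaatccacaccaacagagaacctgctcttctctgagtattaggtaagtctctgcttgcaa
Sprr2f, chr3:92364937-92365236, plus strand: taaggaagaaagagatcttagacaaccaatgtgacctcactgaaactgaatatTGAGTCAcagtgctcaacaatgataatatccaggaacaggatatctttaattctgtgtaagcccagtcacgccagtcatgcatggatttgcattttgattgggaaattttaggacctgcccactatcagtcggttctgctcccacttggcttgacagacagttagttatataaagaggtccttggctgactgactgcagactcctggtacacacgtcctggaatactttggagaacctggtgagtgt
Sprr1a held 2 matches, starting 146 and 116 bases before the annotated start, and Sprr2f held 1, starting 197 bases before it. TGANTCA, which reads the same on both strands, was present in 2 of the 8 member promoters in the RefSeq table and in 7.81% of all 32851 promoters of that length. Searched on both strands, CACCC, a core that KLF factors bind, was present in 6 of the 8 and in 57.5% of all promoters. TATAAA was present in 4 of the 8 (Krt8, Krt20, Sprr1a and Sprr2f) and in 13.6% of all, and CCAAT in 3 of the 8 and in 37.4% of all. In Sprr1a the TGANTCA match nearer the start shares 2 bases with a CACCC match on the opposite strand. Krt15 and Krt19 have no entry in the table.

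After filtering, 3918 I-PpoI cells (median 6612 UMIs) and 3083 wild-type cells (median 3484 UMIs) remained, of which 802 and 1877 were epithelial. The libraries shared 6 barcodes, of which 3 were kept in both. Cells were clustered without any keratin gene, Sprr gene, Klf4 or Sfn, and clusters were named by markers of the nephron segments, so the clustering did not use the genes described. Classes and libraries did not mix evenly. In thick ascending limb-like cells, 1 pair of clusters held 166 of the 174 cells of the I-PpoI library and 8 of the 238 of the wild-type library, and the other pair held the rest. Epithelial clusters that stayed unnamed came almost wholly from the I-PpoI library. A pair led by Spp1, C3 and Fgg with most proximal tubule markers held 380 I-PpoI cells and 2 wild-type cells (the C3/Fgg-led cells), which stayed unnamed because no proximal tubule marker was among their leading genes while the parietal marker Cp was in 1 of the pair, and 1 led by Lcn2, Clu and Cldn4 held 52 I-PpoI cells and 0 wild-type cells (the Lcn2/Cldn4-led cells). A level is the sum of a gene's UMIs over a class, per 1000000 UMIs of that class (CPM), with a 95% interval for counting error in parentheses. Each group is 1 library without a replicate, and differences between the groups cannot be told apart from differences between the libraries. Epithelial I-PpoI cells were deeper (median 6528 UMIs, against 3476 in wild-type) and had a smaller mitochondrial share (median 8.93% of UMIs, against 23.2% in wild-type). The part of either in the results was not tested.

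Summed over all epithelial cells, all 10 genes had at least 2-fold more CPM in the I-PpoI than in the wild-type library, against 21% of the 13245 genes with at least 20 UMIs. These sums also carry the make-up of the epithelium, which held 63 proximal tubule-like cells among 802 in the I-PpoI library and 1343 among 1877 in the wild-type library. Together they took 2147 CPM in I-PpoI and 283 CPM in wild-type epithelial cells. By named class, the genes that reached 20 UMIs and were at least 2-fold higher in I-PpoI cells were 6 of 7 in thick ascending limb-like cells (background 24.7%), 8 of 8 in distal convoluted tubule-like cells (16.9%), 6 of 7 in connecting tubule and principal-like cells (4.98%), 7 of 8 in intercalated-like cells (22%), 1 of 1 in proximal tubule-like cells (10.5%) and 1 of 3 in parietal epithelial-like cells (11.2%). None of the 10 was at least 2-fold lower with 20 UMIs or more, either over all epithelial cells (background 7.54%) or in thick ascending limb-like (6.31%), distal convoluted tubule-like (6.3%), connecting tubule and principal-like (9.46%), intercalated-like (4.17%), proximal tubule-like (10.7%) or parietal epithelial-like cells (8.32%). The 20 UMIs were summed over both libraries, so a gene without wild-type UMIs could pass only through I-PpoI ones and only as higher. Such genes included Krt19, Sprr1a, Sprr2f and Klf4 of intercalated-like cells (144, 113, 133 and 445 UMIs). Parietal Krt7, at 0 UMIs against 16 for wild-type, was not counted. The genes were also picked as higher in these libraries, so setting the counts beside the background is no test. With cells thinned to 1000 UMIs and shallower cells left out, 2 or 3 of the genes still reached 20 UMIs in each of the 4 distal classes, and those at least 2-fold higher were 2 of 3 in thick ascending limb-like, 2 of 2 in distal convoluted tubule-like, 3 of 3 in connecting tubule and principal-like and 2 of 3 in intercalated-like cells. The share of all genes at least 2-fold higher was not computed in thinned cells, so these counts have no background. The levels of the 10 genes followed 4 patterns. Krt7, Krt8, Krt18 and Sfn had UMIs in all wild-type distal segments. Krt19 and Klf4 were near 0 in most of those and present in all 4 I-PpoI distal segments. Krt20 lay mainly in the C3/Fgg-led cells. Krt15, Sprr1a and Sprr2f were carried by few cells.

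**Figure D1:**
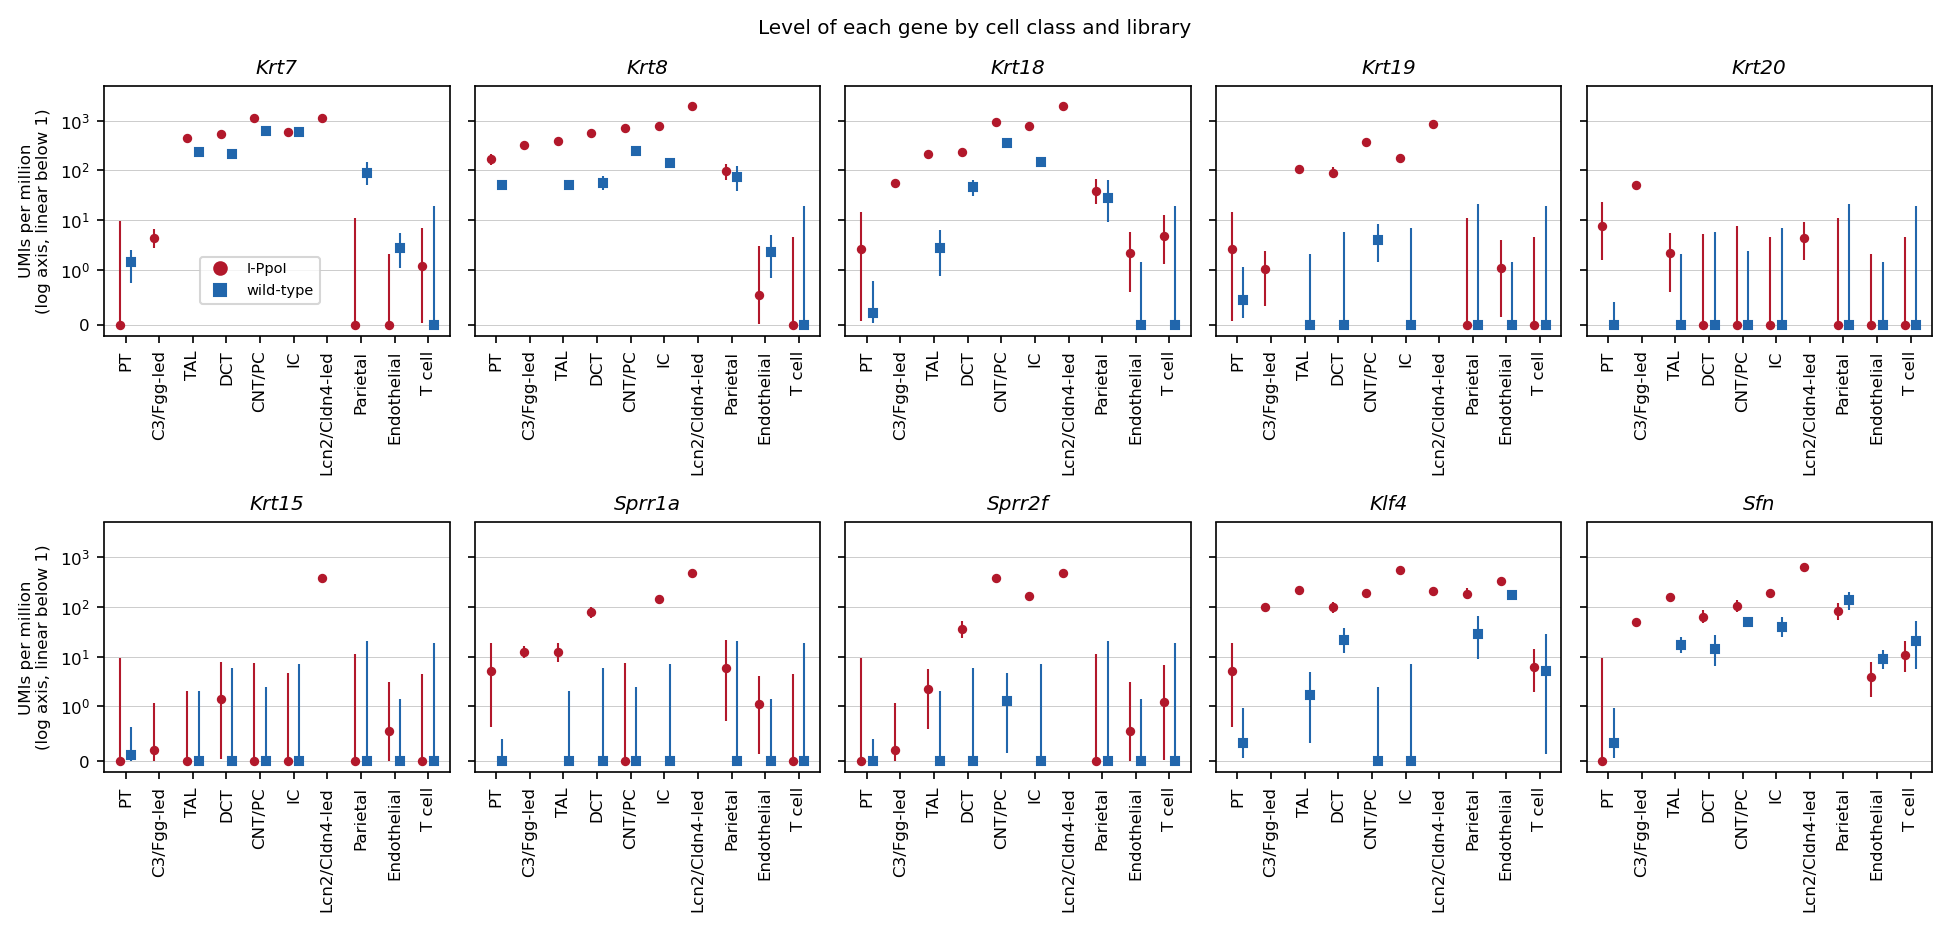
Level of each gene (CPM, log axis that is linear below 1) by cell class, with I-PpoI cells as red circles and wild-type cells as blue squares, and vertical lines as 95% Poisson intervals. PT, TAL, DCT, CNT/PC and IC are proximal tubule-, thick ascending limb-, distal convoluted tubule-, connecting tubule and principal- and intercalated-like cells, and classes with under 10 cells in a library are left out. Krt8 was above wild-type in all 5 tubule classes with both libraries, whereas Krt20 reached its highest level in the C3/Fgg-led cells and Krt15 in the Lcn2/Cldn4-led cells.

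Krt8 and Krt18, the filament pair of simple epithelia, were the most abundant of the 10 genes in I-PpoI epithelium. In thick ascending limb-like cells, which reabsorb salt by Slc12a1, Krt8 stood at 398 CPM (369 to 428) in I-PpoI cells and 49.95 CPM (40.2 to 61.3) in wild-type cells, a 7.96-fold (6.395 to 10.01) ratio. Its partner Krt18 stood at 213 CPM (192 to 235) there, against 2.74 CPM (0.891 to 6.41) in wild-type cells, where 5 UMIs were counted in 238 cells. A 3′ kit counts each captured transcript once whatever its length, and in these counts I-PpoI cells held 732 UMIs of Krt8 beside 392 of Krt18, and wild-type cells 91 beside 5. In distal convoluted tubule-like cells Krt8 was 10.3-fold (7.29 to 14.9) higher and Krt18 5.24-fold (3.52 to 8.05) higher. Intercalated-like cells, which carry the proton pump, had 765 CPM (706 to 828) of Krt8 in I-PpoI and 139.7 CPM (109.5 to 176) in wild-type cells, and 781 CPM (721 to 845) of Krt18 in I-PpoI and 147 CPM (116 to 184) in wild-type cells. In connecting tubule and principal-like cells, which had the highest wild-type levels of both genes, the ratios were smaller, at 2.900-fold (2.505 to 3.36) and 2.65-fold (2.33 to 3.01). The highest levels of both were in the Lcn2/Cldn4-led cells, with 1963 CPM (1891 to 2038) of Krt8 and 1984 CPM (1911 to 2059) of Krt18, where 98.1% and 96.2% of cells held a UMI.

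Cells with a UMI of Krt8 made up 58.6% of I-PpoI and 26.9% of wild-type thick ascending limb-like cells. After thinning to 1000 UMIs they made up 22.4% and 4.55% of the 156 I-PpoI and 176 wild-type cells deep enough. The 18 I-PpoI and 62 wild-type cells with fewer UMIs were left out. In cell types that should lack the gene, the shares were lower: 0.299% of I-PpoI endothelial-like cells (median 4100 UMIs) and 0.598% of wild-type ones (median 3353) held a Krt8 UMI, and 0 of 259 I-PpoI T cell-like cells, which allows a share of cells with a UMI of up to 1.16%. Of the distal convoluted tubule-like clusters, that of 26 I-PpoI beside 34 wild-type cells had 586 CPM of Krt8 in I-PpoI and 61.1 CPM in wild-type cells, and that of 23 beside 87 cells had 449 and 37.8 CPM.

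Proximal tubule-like cells, which reabsorb most filtered solutes, carried Krt8 with almost no Krt18. Wild-type cells of this class held 451 UMIs of Krt8 and 2 of Krt18 over 1343 cells, or 49.8 CPM (45.3 to 54.6) and 0.221 CPM (0.0267 to 0.798). The 63 I-PpoI cells of the class held 65 and 1 UMIs, and their Krt8 level of 167 CPM (129 to 213) was 3.36-fold (2.55 to 4.36) the wild-type one. Krt8 was the single gene of the 10 to reach 20 UMIs in this class. In the C3/Fgg-led I-PpoI cells, Krt8 stood at 324 CPM (308 to 340.1) and Krt18 at 56.2 CPM (49.7 to 63.3), and 60.5% and 17.9% of cells held a UMI of them. Counted together with the C3/Fgg-led cells, the proximal tubule-like class had 7 of 7 genes at least 2-fold higher, where 25.7% of all genes were. A Krt8 pseudogene and an overlapping transcript on the opposite strand (Gm36026) are annotated, and whether reads of either entered the Krt8 count was not tested.

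Krt7, a type II keratin of ducts, had the smallest ratio of the 10 over all epithelial cells, 2.696-fold (2.55 to 2.85). Wild-type cells had it at 231 CPM (209.6 to 254) in thick ascending limb-like, 213 CPM (178 to 251) in distal convoluted tubule-like, 620.0 CPM (581 to 660.5) in connecting tubule and principal-like and 593 CPM (529 to 663) in intercalated-like cells. The intervals of connecting tubule and principal-like and intercalated-like cells overlap, as do those of thick ascending limb-like and distal convoluted tubule-like cells. Against these levels the I-PpoI ratios were 1.98-fold (1.76 to 2.23), 2.55-fold (2.095 to 3.13), 1.86-fold (1.68 to 2.07) and 1.01-fold (0.8699 to 1.16), so that Krt7 passed 2-fold in distal convoluted tubule-like cells alone, by a margin that ended when the mitochondrial limit was 25% or cells were weighted equally. Intercalated-like cells of the libraries did not differ in Krt7 beyond counting error, at 597 CPM in I-PpoI and 593 CPM in wild-type cells, while the other 7 genes counted there were all higher.

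Krt19, a type I keratin without the usual tail domain, was close to absent from wild-type tubule and present along the I-PpoI distal nephron. It stood at 107 CPM (92.6 to 123) in I-PpoI thick ascending limb-like cells, 90.2 CPM (69.6 to 115) in distal convoluted tubule-like cells and 179.8 CPM (152 to 212) in intercalated-like cells, against 0 UMIs in the wild-type cells of all 3 classes. Taking 3 UMIs as the wild-type floor, these levels were at least 64.99-fold, at least 19.2-fold and at least 31.3-fold higher. The 2 thick ascending limb-like clusters made mostly of I-PpoI cells were unlike in Krt19. That of 116 I-PpoI cells (median 7115 UMIs) had 117 CPM (101 to 134). That of 50 (median 1873 UMIs) had 16.1 CPM (1.95 to 58.1), on 2 UMIs. Connecting tubule and principal-like cells had 369 CPM (317 to 427) in I-PpoI and 3.88 CPM (1.42 to 8.44) in wild-type cells, a 95.1-fold (42.9 to 263) ratio, and 94.1% of the 17 I-PpoI cells held a UMI. The Lcn2/Cldn4-led cells had the highest level, 851 CPM (803 to 900.2). Krt19 was nearly absent from cells with proximal tubule markers: the 380 C3/Fgg-led cells held 5 UMIs, or 1.04 CPM (0.338 to 2.43), beside 1.098 CPM (0.133 to 3.97) in I-PpoI endothelial-like cells, which should lack it.

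Krt20 was distributed the other way round from Krt19. No wild-type cell of any class held a UMI of it. Of its 257 UMIs in the I-PpoI library, 244 (94.9%) lay in C3/Fgg-led cells, at 50.8 CPM (44.6 to 57.6), and 64 of those 380 cells (16.8%) held one. After thinning, 3.06% of the 327 cells deep enough did. The remaining 13 UMIs were in 3 thick ascending limb-like, 2 proximal tubule-like and 1 Lcn2/Cldn4-led cell. Outside the epithelium the gene was at 0 UMIs in 3116 I-PpoI cells, so free RNA of it was not detectable. Over the 24 groups of class and library with at least 20 cells, the genes most like Krt20 in log2 CPM were Fgb, a fibrinogen chain (r = 0.97), Defb36 (0.94) and Ubd (0.93). These groups share libraries and depth, and the correlations are descriptions. The values for Krt20 are set mainly by the 1 group that holds 94.9% of its UMIs, the C3/Fgg-led cells.

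**Figure D2:**
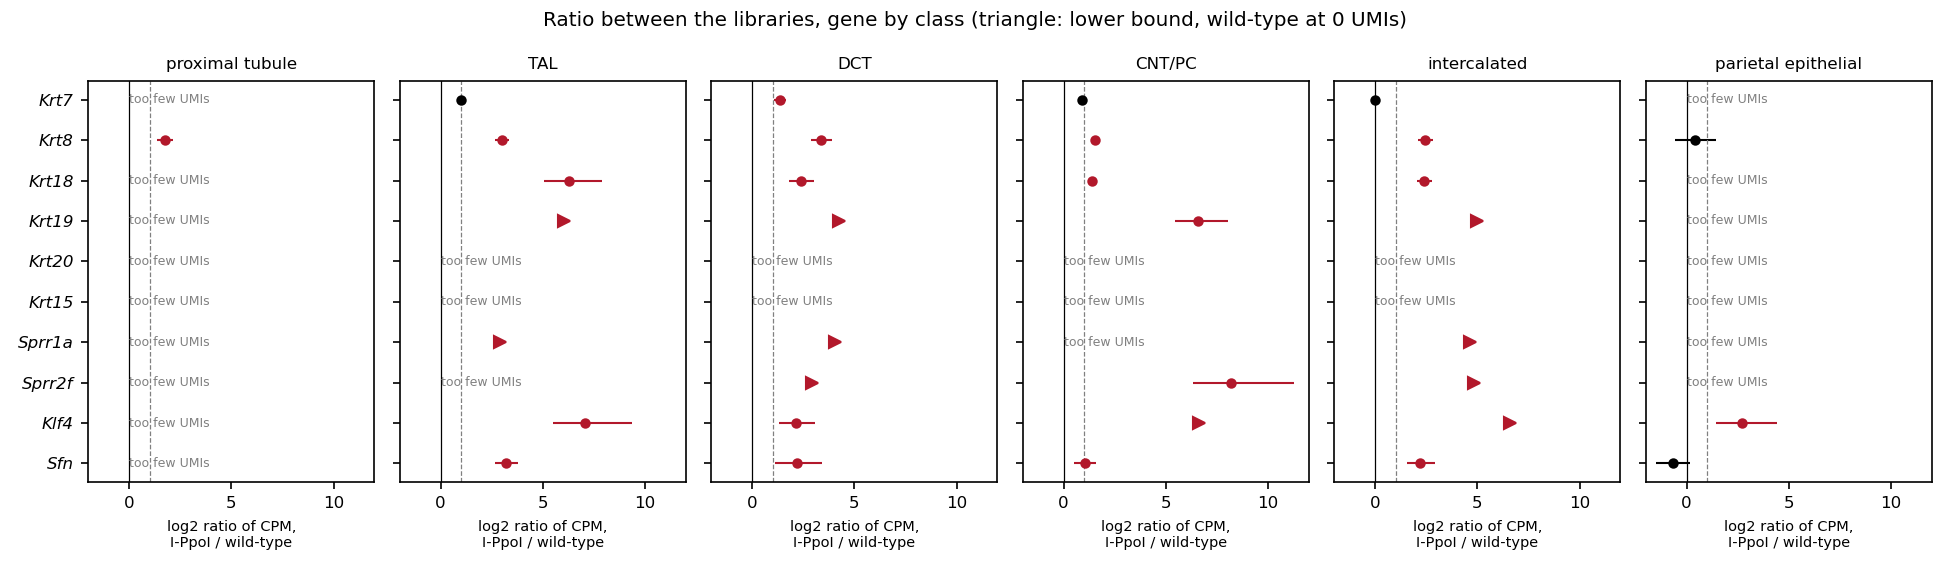
Ratio of CPM in I-PpoI over wild-type cells (log2 axis) for each gene in 6 named classes. Points have 95% intervals for counting error, triangles are lower bounds where wild-type cells held 0 UMIs, red marks a ratio of at least 2 (dashed line) and black a smaller one. Krt7 lay at or under the dashed line in thick ascending limb-, connecting tubule and principal- and intercalated-like cells, and Krt8 lay to the right of it in all classes but the parietal.

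Krt15, the basal-layer keratin, rested on very few cells. Over all epithelium it stood at 49.5 CPM (45.4 to 53.9) in I-PpoI and 0.0701 CPM (0.00178 to 0.391) in wild-type cells, yet 533 of the 535 I-PpoI UMIs lay in 6 of the 52 Lcn2/Cldn4-led cells and 365 of them in 1 cell. The named segments had at most 1 UMI each. The 6 cells held 365, 67, 45, 40, 9 and 7 UMIs of Krt15, and each also held Sprr1a, at 292, 138, 40, 9, 8 and 7 UMIs in the same order. Krt5, the type II basal keratin, was in 5 of the 6, at 211, 25, 0, 14, 10 and 2 UMIs. Trp63, the transcription factor of basal epithelial cells, was in 5 of them, and the third cell, which lacked Krt5, held 42 UMIs of the uroplakin gene Upk3a and 27 of Psca. Umod, the marker of the thick ascending limb, totalled 1 UMI over the 6 cells.

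The Lcn2/Cldn4-led cells were therefore split by markers other than the 10 genes, a split made after these cells had been seen. Cells with at least 3 UMIs summed over a list of 7 urothelial genes (the uroplakins Upk1a, Upk1b, Upk2, Upk3a and Upk3b, with Psca and Gsdmc2) and Krt5, Krt14 and Trp63 numbered 7 of the 52. These 7 cells held all Krt15 UMIs of the cluster, at 2709.8 CPM (2485 to 2949.9), and the other 45 held 0, which at 3 UMIs allows up to 2.49 CPM. Sprr1a stood at 2862 CPM (2631 to 3109) in the 7 cells and 93.7 CPM (77.2 to 113) in the others, where 9 of 45 cells held it. Sprr2f was in 2 of the 7 cells, at 941 CPM (810 to 1086), and in 12 of the 45, at 406 CPM (371 to 444). Krt8 and Krt18 went the other way, with 503 CPM (409 to 613) and 920.2 CPM (791 to 1064) in the 7 cells and 2202 CPM (2119 to 2287) and 2158 CPM (2076 to 2242) in the others. Krt19 was at 1357 CPM in the 7 and 768 CPM in the others, Krt7 at 1444 CPM in the 7 and 1068 CPM in the others, and Sfn and Klf4 had overlapping intervals between the sets. Lcn2, which injured distal cells secrete, stood at 1749 CPM in the 7 cells and 9644 CPM in the others, and Umod at 5.08 CPM in the 7 and 640.2 CPM in the others. A single cell held 54.7% of all UMIs of the 7, and without it Krt19 was at 2078 CPM, Klf4 at 281 CPM, Lcn2 at 2707 CPM and Krt15 at 1887 CPM in the remaining 6, and Sfn, at 943 CPM (752 to 1168), no longer overlapped the others. Some of these markers were also found in named tubule classes, so passing the limit does not by itself make a cell urothelial or basal. Psca stood at 163 CPM in I-PpoI thick ascending limb-like cells and 168 CPM in the 7 cells. Upk3b stood at 119 CPM in wild-type thin limb-like cells and Gsdmc2 at 19.4 CPM in wild-type connecting tubule and principal-like cells. Of the 267 epithelial Krt5 UMIs, 266 lay in the 7 cells. Whether the 7 cells are tubule cells or urothelium taken with the cortex was not tested. Over the same marker limit were 27 epithelial cells in the I-PpoI library, 7 of them in this cluster, and 13 in the wild-type library, 0 of them in it. Without all of these cells, Krt15 had 2 UMIs in I-PpoI epithelium and 1 in wild-type epithelium.

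**Figure D3:**
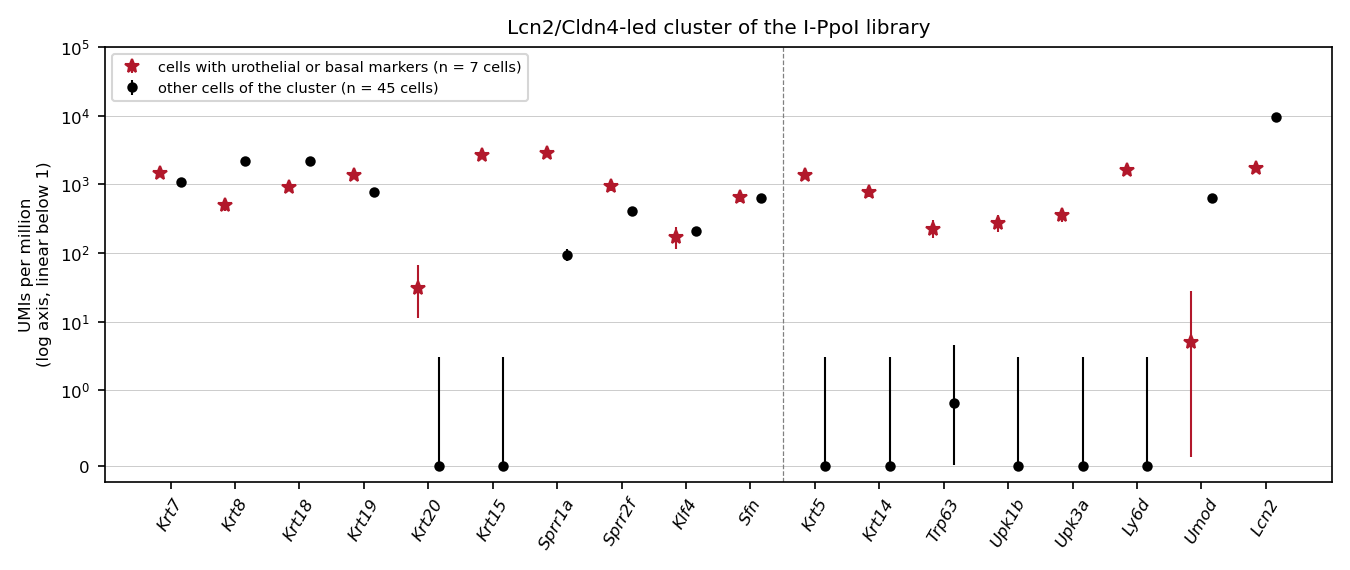
Levels (CPM, log axis that is linear below 1, with 95% Poisson intervals) in the 52 Lcn2/Cldn4-led cells of the I-PpoI library, split into 7 cells with at least 3 UMIs of 10 urothelial or basal markers (red stars) and the other 45 (black circles). The 10 genes are left of the dashed line, and Krt5, Krt14, Trp63, Upk1b and Upk3a, right of it, are among the markers that made the split. Krt15 was at 2709.8 CPM in the 7 cells and 0 in the 45, while Krt8 and Krt18 were higher in the 45.

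Sprr1a and Sprr2f, both precursors of the cornified envelope, were each absent or nearly so from wild-type epithelium, with 0 and 2 UMIs, and held 932 and 1025 UMIs in I-PpoI epithelium. Few cells carried them. Sprr1a was in 43 and Sprr2f in 31 of the 802 I-PpoI epithelial cells, 12 and 15 cells held 10 UMIs or more, and the 5 highest cells gave 68.2% and 62.8% of the UMIs. The Lcn2/Cldn4-led cells held 72.5% of Sprr1a and 65.9% of Sprr2f. Among the named segments, Sprr2f lay in connecting tubule and principal-like cells, at 377 CPM (325 to 435) in 6 of 17 I-PpoI cells with 141 of 186 UMIs in 1 of them, and Sprr1a held 0 UMIs in the same class. Intercalated-like I-PpoI cells had both, Sprr1a at 141 CPM (116 to 169.6) in 3 cells and Sprr2f at 166 CPM (139 to 197) in 4 cells, of 40. Of the 113 UMIs of Sprr1a there, 72 lay in 1 cell, which also had at least 3 UMIs of the urothelial or basal markers, some of which named tubule classes held too. Sprr1a was at 77.7 CPM (58.7 to 101) in distal convoluted tubule-like, 12.5 CPM (7.92 to 18.7) in thick ascending limb-like and 12.5 CPM (9.53 to 16.1) in C3/Fgg-led cells. Without the highest cell of each library, Sprr1a in thick ascending limb-like and distal convoluted tubule-like cells and Sprr2f in distal convoluted tubule-like cells had 15, 6 and 4 UMIs, under the limit of 20. The cells with Sprr2f also changed class with the clustering: intercalated-like I-PpoI cells held 2 UMIs of it with doublets kept, 2 with at least 500 genes per cell and 1 at resolution 0.5, against 133 here. Sprr2 genes have close copies, and how the authors' counting divided reads among them is not given in the sources used here. Of the other 13 Sprr genes, 2 had a UMI in epithelium, and Sprr2a3 reached 20, all in I-PpoI cells and all in the Lcn2/Cldn4-led cells.

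**Figure D4:**
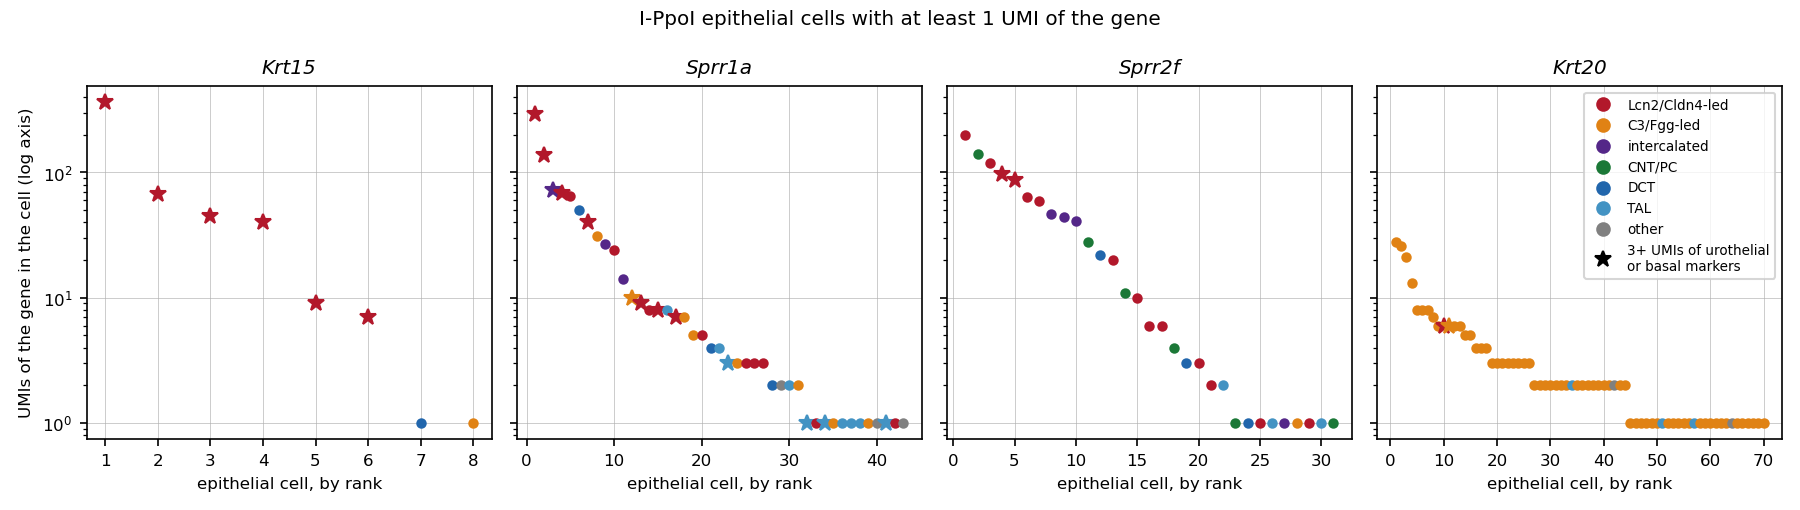
UMIs of Krt15, Sprr1a, Sprr2f and Krt20 in each I-PpoI epithelial cell that held at least 1 (log axis), ranked from the highest, with the cell class in colour. Stars mark cells with at least 3 UMIs of 10 urothelial or basal markers. Krt15 was above 1 UMI in 6 cells, all starred, Sprr2f was spread over distal classes with few stars, and Krt20 lay mostly in C3/Fgg-led cells with at most 28 UMIs per cell.

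Klf4 was higher in I-PpoI cells of each named class in which it reached 20 UMIs. It stood at 218 CPM (198 to 241) in I-PpoI thick ascending limb-like cells and 1.65 CPM (0.3396 to 4.81) in wild-type ones. This was a ratio of 402 to 3 UMIs or 133-fold (45.1 to 646). Among these cells, the cluster of 116 I-PpoI cells had 235 CPM (213 to 260). The shallower cluster of 50 I-PpoI cells had 8.04 CPM (0.204 to 44.8), on 1 UMI. Intercalated-like cells had the highest level, 556 CPM (505 to 609.6), against 0 UMIs in wild-type cells, at least 96.7-fold higher, and connecting tubule and principal-like cells had 188 CPM (152 to 231) in I-PpoI cells against 0 UMIs in wild-type cells, at least 97.2-fold higher. In distal convoluted tubule-like cells the levels were 97.1 CPM (75.7 to 123) in I-PpoI and 21.9 CPM (11.96 to 36.7) in wild-type cells, with 13 of the 14 wild-type UMIs in 1 cell. The gene is not an epithelial marker in this tissue: endothelial-like cells had 334 CPM (308 to 362) in I-PpoI and 171 CPM (156 to 188) in wild-type cells, and macrophage-like cells 85.3 CPM (80.7 to 90.1) in I-PpoI and 26.6 CPM (17.4 to 39.01) in wild-type cells. T cell-like cells had 6.05 CPM (1.97 to 14.1) in the I-PpoI and 5.13 CPM (0.1300 to 28.6) in the wild-type library. The list of 14 immediate early genes, which enzymatic dissociation can induce, was higher in several of the same classes: it summed to 7207 CPM in I-PpoI and 454 CPM in wild-type thick ascending limb-like cells, 13304 CPM in I-PpoI and 3099 CPM in wild-type intercalated-like cells, and 7062 CPM in I-PpoI and 1878 CPM in wild-type endothelial-like cells, with all 14 at least 2-fold higher in the first class (background 24.7%) and 13 in the second (22%). Klf4 was also higher in 3 other classes. There, 8 of the 14 were at least 2-fold higher in distal convoluted tubule-like cells (16.9%), 9 in connecting tubule and principal-like cells (4.98%) and 1 in parietal epithelial-like cells (11.2%). The part of this list in the Klf4 result was not tested.

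Sfn, the epithelial 14-3-3 protein, was 9.13-fold (6.29 to 13.7) higher in thick ascending limb-like, 4.54-fold (2.19 to 10.5) in distal convoluted tubule-like and 4.63-fold (2.92 to 7.697) in intercalated-like I-PpoI cells. Its levels in these classes were 155 CPM (138 to 174), 63.8 CPM (46.7 to 85.1) and 186 CPM (157 to 218) in I-PpoI cells, and 17.02 CPM (11.6 to 24.2), 14.1 CPM (6.43 to 26.7) and 40.2 CPM (24.9 to 61.4) in wild-type cells. T cell-like cells had 10.9 CPM (4.98 to 20.7) in the I-PpoI and 20.5 CPM (5.595 to 52.6) in the wild-type library, and the wild-type interval overlaps those of all 4 wild-type distal classes. Wild-type endothelial-like cells, at 8.85 CPM (5.61 to 13.3), overlap thick ascending limb-like and distal convoluted tubule-like cells but not the other 2 classes. By these overlaps, Sfn in wild-type thick ascending limb-like and distal convoluted tubule-like cells was not separated from either background. Overlap does not show that it was absent there, and the wide T cell-like interval rests on 60 cells. In wild-type intercalated-like and connecting tubule and principal-like cells Sfn exceeded the endothelial but not the T cell-like interval. In these 2 classes 31.8% and 45.2% of cells held a UMI of it. In connecting tubule and principal-like cells the ratio was 2.09-fold (1.44 to 3.01) and did not stay above 2 without the highest cell of each library, with a log2 ratio of 0.82. The direction turned when doublets were kept (log2 ratio -0.24) and at clustering resolution 2 (-0.38). The other 6 14-3-3 genes, which every cell uses, summed to 1564 CPM in I-PpoI and 777 CPM in wild-type thick ascending limb-like cells, with 3 of 6 at least 2-fold higher (background 24.7%).

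Parietal epithelial-like cells, which line Bowman's capsule beside the podocytes, had 1 of 3 counted genes higher. The class held 19 I-PpoI and 18 wild-type cells with parietal markers in both libraries, such as Ncam1, Akap12, Cp and Pax2. Their levels differed: Ncam1 stood at 526 CPM in I-PpoI and 1131 CPM in wild-type cells, and Akap12 at 1760 and 873 CPM. The pan-epithelial list without keratins summed to 580 CPM in I-PpoI and 1394 CPM in wild-type cells. Of its 3 counted genes, 2 were at least 2-fold lower (8.32% of all genes) and 0 higher (11.2%). Klf4 stood at 185 CPM (142 to 237) in I-PpoI and 27.99 CPM (9.09 to 65.3) in wild-type cells, a 6.62-fold (2.69 to 21.1) ratio, while Krt8 at 95.6 CPM (65.4 to 135) and 72.8 CPM (38.7 to 124) and Sfn at 83.7 CPM (55.6 to 121) and 134 CPM (86.1 to 199.9) did not differ beyond counting error. Krt8 UMIs lay in 15.8% of the I-PpoI and 27.8% of the wild-type cells, so its levels rest on few cells. Krt7 went the other way from Klf4, with 0 UMIs in I-PpoI and 16 UMIs in wild-type cells, of which 44.4% held one, but did not reach 20 UMIs. Krt15, Krt19, Krt20 and Sprr2f had 0 UMIs in both libraries. The immediate early list summed to 9286 and 8189 CPM. The class depended on the clustering: under 5 other settings it took in 96 to 159 I-PpoI cells, and 5 of 7 genes were then at least 2-fold higher, where 18.5% to 20.2% of all genes were.

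The genes were next counted together in single cells thinned to 1000 UMIs. In thick ascending limb-like cells, at least 3 of the 10 genes were present in 10 of 156 I-PpoI cells (6.41%), against 0 of 176 wild-type cells, and in intercalated-like cells in 11 of 38 (28.9%) and 1 of 37. In distal convoluted tubule-like cells they were in 3 of 39 I-PpoI cells, against 1 of 79 in wild-type, and wild-type connecting tubule and principal-like cells, with 4 of 73 (5.48%), had a share close to that of I-PpoI thick ascending limb-like cells. The Lcn2/Cldn4-led cells had a median of 3 and at most 8 of the 10, and 29 of 50 (58%) had at least 3. In the C3/Fgg-led cells 4 of 327 did (1.22%). Before thinning, Sprr1a was in 16 and Sprr2f in 14 of the 50 Lcn2/Cldn4-led cells deep enough, and both were in 8. In thick ascending limb-like I-PpoI cells 10 held Sprr1a, 2 held Sprr2f and 0 held both.

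Over the 24 groups of class and library, the genes most alike in log2 CPM among the 10 were Sprr1a and Sprr2f (r = 0.96). Sprr1a with Krt19 followed (0.94). These values compare groups, not cells. They lean on the 1 group of Lcn2/Cldn4-led cells, which held 72.5% of the Sprr1a and 65.9% of the Sprr2f UMIs of I-PpoI epithelium. Within the Lcn2/Cldn4-led cells, 563 of 676 Sprr1a UMIs were in the 7 cells with urothelial or basal markers. Of 675 Sprr2f UMIs, 490 were in the other 45 cells. Outside the 10, Spink12 and S100a14 were among the 3 genes most like both Sprr genes (0.97 and 0.96 with Sprr2f), the tight junction gene Cldn4 was among the 3 most like Krt18 (0.93), and the transcription factor gene Elf3 was most like Krt8 (0.96). Krt14, Krt5 and Krt17 were most like Krt15 (1.00, 1.00 and 1.00), values set by the 1 group that holds the 6 cells. Klf4 had the weakest likeness, with Bmf first (0.86).

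The other genes of these families and pathways were counted in the same way. Of 47 other keratin genes, 17 had a UMI in epithelial cells and 6 reached 20: Krt5, Krt14 and Krt17 were at 267, 152 and 162 UMIs in I-PpoI and 0 in wild-type epithelium, while Krt10, Krt23 and Krt80 differed less than 2-fold over all epithelial cells. Nearly all UMIs of the first 3 lay in the 52 Lcn2/Cldn4-led cells: 266 UMIs of Krt5 and 151 of Krt14 were in the 7 cells with urothelial or basal markers, and 159 of Krt17 in the other 45. By class, 2 of the 3 other keratins counted in connecting tubule and principal-like cells were at least 2-fold lower (9.46% of all genes) and 0 were higher (4.98%). Of the 2 counted in thick ascending limb-like cells, 1 was higher (24.7%) and 0 were lower (6.31%). In thick ascending limb-like cells, the list of 20 cornified envelope and squamous differentiation genes had 6 that reached 20 UMIs, of which 5 were at least 2-fold higher (background 24.7%), and the other 14 did not reach it. Those higher included Anxa1, a phospholipid-binding protein, at 133 CPM in I-PpoI and 0.549 CPM in wild-type cells, and Cstb, a protease inhibitor, at 320.0 CPM in I-PpoI and 122 CPM in wild-type cells. Desmosome and plakin genes, which anchor keratin filaments, were higher in 7 of 9 (background 24.7%, median log2 ratio 1.26), with the linker Plec at 177 CPM in I-PpoI and 41.2 CPM in wild-type cells and the plakoglobin gene Jup at 172 CPM in I-PpoI and 71.9 CPM in wild-type cells. Epithelial and squamous transcription factors were higher in 7 of 10 (background 24.7%, median 2.44), led by Klf6 at 651 CPM in I-PpoI and 41.7 CPM in wild-type cells. The distal tubule injury list was higher in all 10 that reached 20 UMIs (background 24.7%, median 5.73), with Lcn2 at 4144 CPM in I-PpoI and 8.78 CPM in wild-type cells. The same median over all 9483 genes of the class was 0.45, and over the 7 counted genes of the 10 it was 5.54. In connecting tubule and principal-like cells (background 4.98%), 1 of 6 squamous differentiation and 2 of 9 desmosome and plakin genes were higher. Of those 9, 1 was lower (9.46% of all genes). There, 3 of 10 transcription factor and 5 of 10 distal injury genes were higher. In distal convoluted tubule-like cells (16.9%), the counts in this order were 4 of 5, 3 of 6, 6 of 7 and 9 of 9. In intercalated-like cells (22%) they were 3 of 6, 4 of 8, 6 of 11 and 9 of 9. In parietal epithelial-like cells, 1 of 5 desmosome and plakin genes, 2 of 4 squamous differentiation genes and 1 of 5 distal injury genes were at least 2-fold higher, against 11.2% of all genes there.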

How the data were processed

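The deposited values are whole-number UMI counts per gene and barcode, made by the authors with Cell Ranger on a prebuilt mm10 reference, per the labels, which give version 3.1 (the file headers name 6.0.2). Gene coordinates came from GENCODE M21, which held 31011 of the 31053 identifiers. Cells with at least 200 genes and at most 50% mitochondrial UMIs were kept, and the top 4% of Scrublet scores in each library was left out (173 I-PpoI and 134 wild-type barcodes, ties included), because the automatic threshold marked 0.709% and 0.0933%. RNA free in the droplets stayed in. Clusters were made over both libraries at once in scanpy 1.11.5 (2000 variable genes, 30 components, 15 neighbours, Leiden resolution 1) and epithelial clusters again at resolution 2. A name needed 3 markers with 25 CPM and 4-fold over the median cluster (10 CPM added), and at least 1 of them among the 10 leading genes, with no more markers of another class there. UMIs were summed by class and library. Sums have exact Poisson, ratios exact conditional binomial and shares Clopper-Pearson intervals of 95%, which cover counting error only, and a fold of at least 2 needed 20 UMIs. A class at 0 UMIs was set to 3 UMIs for lower bounds, and a count of 0 was given the limit of 3 counts. Cells are not replicates, so no p-values were computed. The ratio and interval steps were tested on simulated data. The 10 genes were named throughout. From the other keratin and Sprr genes those with most CPM were named, from each list up to 4 with most UMIs, and for likeness the 3 genes of highest Pearson correlation of log2(CPM + 10). Members, lists and rules were chosen with earlier results of these data known. A gene that these rules would name is not reported here. Alternatives for filters, doublets, clustering, totals, weighting and depth are given in the closing section.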

Additional observations from a re-analysis of the deposited data

Results flagged for a closer look

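The barcodes that the cell filters left out (1177 in the I-PpoI and 2319 in the wild-type library) entered no comparison and were not sorted by class. In them, 4 of the 10 genes had a higher CPM in the I-PpoI library, with intervals that did not overlap. The same count was not made over all genes, so it has no background. Krt18 stood at 14.3 CPM (8.97 to 21.7, counting error only) in left-out I-PpoI barcodes and 0.547 CPM (0.149 to 1.400) in left-out wild-type barcodes. Krt19, Sprr2f and Klf4 each had 8 UMIs, or 5.21 CPM, in left-out I-PpoI barcodes, against 1, 0 and 7 UMIs in left-out wild-type barcodes. Krt7 and Krt8 overlapped in their intervals, at 13.7 and 11.1 CPM in I-PpoI and 10.8 and 7.24 CPM in wild-type barcodes.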

How the results depend on the processing

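No paired analysis was possible because each group has 1 library. Of 39 ratios of at least 2-fold, 39 were kept with mitochondrial and haemoglobin UMIs left out of the totals, 37 with cells weighted equally, 36 without the 5% deepest cells, 34 with doublets kept and 17 with cells thinned to 1000 UMIs, where the other 22 had too few UMIs. All 10 genes were higher over all epithelial cells except with thinning (8) and without cells with urothelial or basal markers (9). With thinning, which lowers the UMIs counted, 2 genes were higher in thick ascending limb-like, 2 in distal convoluted tubule-like, 3 in connecting tubule and principal-like, 2 in intercalated-like and 0 in parietal epithelial-like cells. The 3 included Krt7, which was under 2-fold in that class without thinning. No share of all genes was computed with thinning or without marker-positive cells. In proximal tubule-like cells 1 gene became 2 with at least 500 genes per cell, where 9.6% of all genes were higher. It also became 2 with classes from each cell's marker score (11.6% of all genes). The count became 5 with doublets kept (11.8%), at resolution 0.5 (18.8%) or with the second clustering at resolution 1 (21.2%). With unnamed clusters joined it became 7 (25.7%), as C3/Fgg-led cells entered the class. With doublets kept, connecting tubule and principal-like cells had 3, where 5.01% of all genes were higher. In parietal epithelial-like cells 1 gene became 5 with a mitochondrial limit of 25%, at least 500 genes per cell or doublets kept. It also became 5 at resolution 0.5 or with the genes kept in the clustering. Under these settings the class held 96 to 159 I-PpoI cells, and 18.5% to 20.2% of all genes were higher. With marker scores the count became 8 (18.1% of all genes). Sfn in connecting tubule and principal-like cells turned to a log2 ratio of -0.24 with doublets kept and -0.38 at resolution 2, and the cause was not tested. Intercalated-like cells at the 25% limit, and parietal epithelial-like cells at resolution 2 or with the second clustering at resolution 1, had under 5 cells in a library and gave no value. The second clustering at resolution 1, the joining of unnamed clusters and the leaving out of single cells, of the deepest of the 7 cells or of marker-positive cells were chosen after seeing the data.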

Other observations

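Other intermediate filaments were higher in I-PpoI epithelium too. Vim, the filament of mesenchymal and injured epithelial cells, stood at 231 CPM in I-PpoI and 11.9 CPM in wild-type cells, Nes, a filament of progenitor cells and podocytes, at 29.8 CPM in I-PpoI and 2.94 CPM in wild-type cells, and Lmna, a nuclear lamin, at 135 CPM in I-PpoI and 36.4 CPM in wild-type cells, and 6 of the 7 genes of this list with 20 UMIs were at least 2-fold higher (background 21%). Much of the Vim lay in parietal epithelial-like cells, with 1453 of 2494 UMIs in I-PpoI and 164 of 170 in wild-type epithelium, and the rest of the epithelium was at 99.5 CPM in I-PpoI and 0.426 CPM in wild-type cells. Parietal epithelial-like cells, in which Krt8 did not differ beyond counting error, had Vim at 4341 CPM in I-PpoI and 918 CPM in wild-type cells, a ratio of 4.73 (4.02 to 5.59). Among the KLF factors other than Klf4, 9 of 12 were at least 2-fold higher and 1 lower in thick ascending limb-like cells (background 24.7% and 6.31%). Klf2, best known from endothelium, had 333 UMIs in I-PpoI cells of that class, against 0 in wild-type cells, at least 109.9-fold higher.

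Krt18 was also found outside the epithelium. Neutrophil-like I-PpoI cells held 79 UMIs, or 184 CPM (146 to 229.9), in 13 of 181 cells, with 26 UMIs in 1 of them, while Krt8 stood at 11.7 CPM (3.79 to 27.2) in the same cells. The 12 wild-type neutrophil-like cells held 0 Krt18 UMIs, which allows a share of cells with a UMI of up to 25%. Thin limb-like cells were not compared because 8 were from the I-PpoI library. The 38 wild-type cells of that class had 163 CPM (129.8 to 203) of Krt8, 214 CPM (175 to 259) of Krt18, 86.8 CPM (62.8 to 117) of Krt7 and 10.1 CPM (3.28 to 23.6) of Krt19, the last being the highest wild-type level of Krt19 among the tubule classes, though on 5 UMIs.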
